A study of Mus musculus with 6 samples.

Results

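The genes described here are the axon guidance ligands and receptors of the mouse, 64 of the 21887 protein-coding genes annotated on the main chromosomes. They were picked by gene symbol and not by their values, though with earlier results of these data known. They comprise 14 Eph receptors and 8 ephrins, 20 semaphorins with 9 plexins and 2 neuropilins, 4 netrins, and 3 Slits with 4 Robo receptors. Their promoters were examined for H3K4me3, trimethylation of lysine 4 of histone H3, a mark of the start sites of active and poised genes. It was mapped by chromatin immunoprecipitation and sequencing in Lgr5+ progenitors, supporting cells of the cochlea that carry the R-spondin receptor Lgr5. The groups were 2 libraries of progenitors exposed for 12 h to neomycin, an aminoglycoside that kills hair cells, and 2 libraries of untreated progenitors, and the design asked how the mark differs after damage. Both groups came from C57BL/6 mice with the Lgr5-EGFP-creERT2 allele, of either sex and 0 to 3 days old. Their cochleae were cultured with growth factors, cells were sorted by the reporter's green fluorescence, and all 4 libraries were made with the same antibody against trimethylated lysine 4. Each group also had an input library, which was not analysed here. Whether replicates were separate cultures is not stated, so the spread between them may be technical and is the sole yardstick for differences. The untreated lists were deposited under names that read H3K4me2, against H3K4me3 in their labels, and the mark they hold is uncertain to that extent.

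Axon guidance genes encode cues that steer growing nerve fibres and the receptors that read them. Ephrins are membrane-bound ligands of the Eph receptor tyrosine kinases, semaphorins act through plexins, often with a neuropilin as co-receptor, netrins act through Dcc and the Unc5 receptors, and Slits act through Robo receptors. The same proteins also set tissue boundaries and vessel patterns, and in the developing mouse cochlea several of them guide the fibres of spiral ganglion neurons toward the sensory epithelium.

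The peak lists held 14203 and 11545 peaks in neomycin replicates 1 and 2, and 15938 and 10520 peaks in untreated replicates 1 and 2. They give no read totals, so the depth is unknown. The lists also differed in resolution. The shortest peak was 48 and 110 bp in the neomycin lists, against 187 and 234 bp in the untreated lists, and the median peak was 70 and 142 bp with neomycin, against 310.5 and 340 bp in untreated cells. A promoter was called marked when a peak touched the 2 kb centred on a RefSeq start site (a gene end, for 8 members with none listed), and its domain length was the sum of the lengths of those peaks. The label was checked against marker genes: of 20 supporting and progenitor cell markers, neomycin libraries had marks at 15 and 16 and untreated libraries at 19 and 18, and Lgr5 was marked in all 4. Of 15 hair cell markers, 2 and 1 were marked with neomycin, against 7 and 1 in untreated cells. Marks were found at 4 and 6 of 20 spiral ganglion neuron markers in the neomycin libraries, against 8 and 6 in the untreated libraries. Of 10 glial markers 4 and 2 were marked with neomycin, against 5 and 3 in untreated cells, and of 10 endothelial markers 2 and 2 with neomycin, against 2 and 1 in untreated cells. None of 10 macrophage and blood markers was marked in any of the 4 libraries. Of 15 mesenchyme markers, 0 were marked in either neomycin library, against 5 in each untreated library. The shares of all protein-coding genes marked were 34.9% and 33.6% with neomycin, against 47% and 36.3% in untreated cells. The supporting cell list lay above these shares in each library. The glial list did so in neomycin replicate 1 (40%) and untreated replicate 1 (50%). The hair cell, neuron, endothelial, mesenchyme and macrophage lists lay below them in each library.

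The promoter sequences of 7 members named in the results are shown, and marks were called from peaks and not from sequence. The first 4, of Efna2, Nrp2, Sema6b and Slit3, are those marked in both untreated and neither neomycin library. Epha4 is the member whose peaks lay in the neomycin libraries only, Efna5 had the longest domains summed over the libraries, and Robo4 is an unmarked member with few CpG dinucleotides. Each runs 5′ to 3′ from 250 bases before the start site to 50 bases after it, as RefSeq gives it for GRCm38.p6, the assembly of mm10, and capitals mark each CpG. The windows are chr10:80179232-80179531 on the plus strand for Efna2, chr1:62703067-62703366 on the plus strand for Nrp2, chr17:56140294-56140593 on the minus strand for Sema6b, and chr11:35121206-35121505 on the plus strand for Slit3. They are chr1:77515039-77515338 on the minus strand for Epha4, chr17:62881268-62881567 on the minus strand for Efna5, and chr9:37401722-37402021 on the plus strand for Robo4.
Efna2: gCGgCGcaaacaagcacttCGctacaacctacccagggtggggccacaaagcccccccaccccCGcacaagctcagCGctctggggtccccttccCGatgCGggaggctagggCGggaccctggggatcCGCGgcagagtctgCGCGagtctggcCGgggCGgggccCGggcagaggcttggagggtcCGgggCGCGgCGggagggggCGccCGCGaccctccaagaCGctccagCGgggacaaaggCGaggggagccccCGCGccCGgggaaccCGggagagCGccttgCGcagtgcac
Nrp2: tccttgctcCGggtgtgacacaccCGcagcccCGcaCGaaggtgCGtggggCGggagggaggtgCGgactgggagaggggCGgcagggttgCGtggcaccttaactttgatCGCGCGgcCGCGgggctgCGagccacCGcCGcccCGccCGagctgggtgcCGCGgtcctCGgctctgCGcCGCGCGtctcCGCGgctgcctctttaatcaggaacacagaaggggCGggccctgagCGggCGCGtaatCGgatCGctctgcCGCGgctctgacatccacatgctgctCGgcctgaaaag
Sema6b: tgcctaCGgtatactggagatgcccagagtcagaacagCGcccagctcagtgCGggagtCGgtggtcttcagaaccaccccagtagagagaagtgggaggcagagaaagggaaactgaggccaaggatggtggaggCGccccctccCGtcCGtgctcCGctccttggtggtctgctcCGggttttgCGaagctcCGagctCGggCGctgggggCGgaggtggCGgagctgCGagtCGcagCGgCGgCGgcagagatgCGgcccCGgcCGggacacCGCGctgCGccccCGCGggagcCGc
Slit3: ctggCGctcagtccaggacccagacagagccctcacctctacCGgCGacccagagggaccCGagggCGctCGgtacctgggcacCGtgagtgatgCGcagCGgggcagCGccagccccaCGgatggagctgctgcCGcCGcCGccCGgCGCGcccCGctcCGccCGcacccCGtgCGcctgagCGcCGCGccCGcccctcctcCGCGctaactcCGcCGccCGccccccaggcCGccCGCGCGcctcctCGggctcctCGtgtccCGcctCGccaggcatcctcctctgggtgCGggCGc
Epha4: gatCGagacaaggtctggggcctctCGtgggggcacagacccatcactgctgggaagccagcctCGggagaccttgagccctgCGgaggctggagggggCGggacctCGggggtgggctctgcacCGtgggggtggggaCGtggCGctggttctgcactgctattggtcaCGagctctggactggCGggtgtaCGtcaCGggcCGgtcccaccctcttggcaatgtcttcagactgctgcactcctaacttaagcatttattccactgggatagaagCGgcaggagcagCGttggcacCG
Efna5: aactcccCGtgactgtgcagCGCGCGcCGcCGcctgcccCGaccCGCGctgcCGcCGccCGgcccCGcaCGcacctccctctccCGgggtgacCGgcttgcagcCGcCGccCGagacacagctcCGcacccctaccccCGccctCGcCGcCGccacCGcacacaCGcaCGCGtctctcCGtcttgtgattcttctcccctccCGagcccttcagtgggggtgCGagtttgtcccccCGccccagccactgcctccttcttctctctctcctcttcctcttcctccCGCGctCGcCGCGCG
Robo4: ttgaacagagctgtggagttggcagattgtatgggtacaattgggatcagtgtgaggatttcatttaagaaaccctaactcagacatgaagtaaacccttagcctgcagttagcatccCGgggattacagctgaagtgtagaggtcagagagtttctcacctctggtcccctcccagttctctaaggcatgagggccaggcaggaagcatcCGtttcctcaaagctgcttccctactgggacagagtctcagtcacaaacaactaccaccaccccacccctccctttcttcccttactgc

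The 4 promoters marked in untreated cells alone held 31 CpG in 300 bases at Efna2, 37 at Nrp2, 29 at Sema6b and 41 at Slit3, where members marked in 1 to 3 libraries had a median of 28. Efna5 had 38, Epha4 had 17 and Robo4 had 2. The median over 17492 genes with a RefSeq start was 15, that over such genes marked in 1 to 3 libraries was 22, and 95% of those promoters held at least 1 CpG.

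The guidance genes carried the mark more often than protein-coding genes at large in each of the 4 libraries. A start was marked at 33 of the 64 members (51.6%) in each neomycin library, against 48 (75%) and 40 (62.5%) in untreated replicates 1 and 2. Over all protein-coding genes the shares were 34.9% and 33.6% with neomycin, against 47% and 36.3% in untreated cells, so the members' share was between 1.48 and 1.72 times that of all genes. In all, 49 members (76.6%) were marked in at least 1 library, beside 55.0% of all genes. Marks in all 4 libraries were found at 21 members (32.8%), beside 16.7% of all genes. Another 15 members had no peak at a start in any library.

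**Figure D1:**
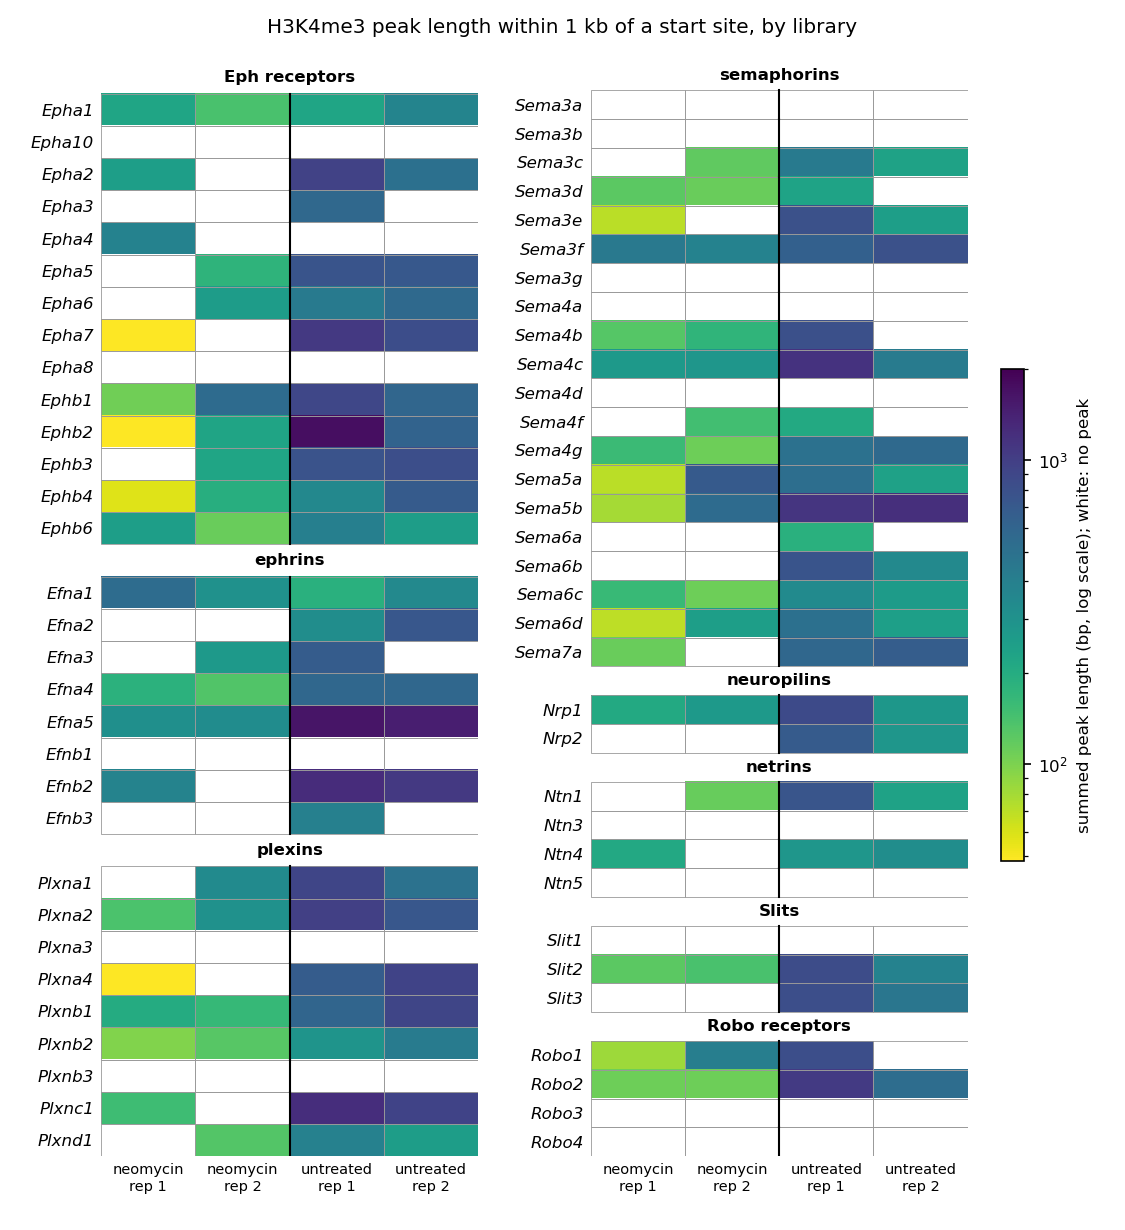
Summed length in bp (log colour scale) of the H3K4me3 peaks within 1 kb of a start site, for each of the 64 genes (rows, by family) in the neomycin libraries (left of the line) and the untreated libraries (right); white cells had no peak. Of the 64 genes, 21 have colour in all 4 columns and 15 in none.

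**Figure D2:**
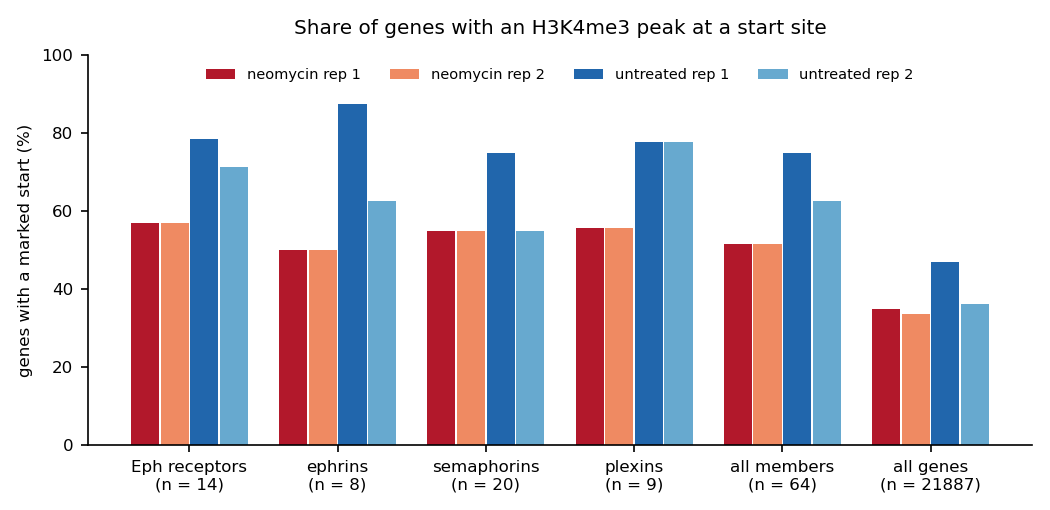
Percent of genes with an H3K4me3 peak within 1 kb of a start site in each library, for the 4 larger families, all 64 members and all 21887 protein-coding genes. The members' bars reach 51.6% in both neomycin libraries, against 75% and 62.5% in untreated replicates 1 and 2, above the bars of all genes in each library.

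Between the groups, the difference ran toward untreated cells. Of the 64 members, 22 (34.4%) were marked in more untreated than neomycin libraries and 4 (6.25%) in more neomycin than untreated libraries, where the same shares of all genes were 21.8% and 10.2%. Marks in both untreated and neither neomycin library were found at 4 members (6.25%), beside 4.66% of all genes, a share near the background. Marks in both neomycin and neither untreated library were found at 0 members, beside 1.40% of all genes. Presence was not tested, because 4 libraries part into pairs in 3 ways and no relabelling can give a p under 0.333. Untreated replicate 1, the longest list, held marks at 48 of the 49 marked members (98%) and at 85.6% of all genes marked anywhere. All 33 members marked in neomycin replicate 2 and all 40 marked in untreated replicate 2 were among those 48, whereas the neomycin libraries shared 24 of their 33 marked members each. Without neomycin replicate 1 the members marked in untreated cells alone were 12 (18.8%, beside 11.1% of all genes), without neomycin replicate 2 they were 11 (17.2%, beside 10.2%), and without untreated replicate 2 they were 7 (10.9%, beside 8.7%). Without untreated replicate 1 they were 4 (6.25%), with 3 (4.69%) marked in neomycin cells alone, and over all genes the order was the other way, 5.75% in untreated cells alone and 5.91% in neomycin cells alone. Fewer marked cells and less mark per cell cannot be told apart in such sorted populations.

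The 4 members marked in untreated cells alone came from 4 families, and 3 of them are ligands. Efna2, on chromosome 10, encodes ephrin-A2, a ligand of EphA receptors. It had no peak in either neomycin library, against 1 peak of 319 bp and 1 of 725 bp at the start in untreated replicates 1 and 2. Both untreated peaks spanned the start site, with pileups, the number of overlapping fragments at the summit, of 15 and 15 and fold enrichments of 8.66 and 10. The nearest neomycin peaks lay 11 and 11.5 kb away. Slit3, on chromosome 11, encodes a secreted ligand of Robo receptors. It too had no peak in the neomycin libraries, against peaks of 815 and 460 bp across the start in the untreated libraries. The nearest neomycin peaks were 649 and 288 kb from its start.

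Sema6b, on chromosome 17, encodes a transmembrane semaphorin that binds A-type plexins. It had no peak in either neomycin library, against 762 and 346 bp in the untreated libraries, both inside the gene and at the outer of its 2 start sites. The inner start, 6.49 kb into the gene, had none in any library. Nrp2, on chromosome 1, encodes neuropilin-2, a co-receptor for secreted semaphorins such as Sema3f. It had no start peak in either neomycin library, against 683 and 282 bp in the untreated libraries. Inside Nrp2, 3.19 kb from the start, a region held 91 and 0 bp of peaks in neomycin replicates 1 and 2, against 849 and 412 bp in untreated replicates 1 and 2. So neomycin replicate 1 had a peak in the gene but not at its start. Efna2, Nrp2, Sema6b and Slit3 were also marked in untreated cells alone when windows were 2.5 kb either side. With peaks anywhere in the gene counted, Nrp2 was not. All 4 kept the pattern with windows of 500 bp, with at least 200 bp covered and with all lists at the length of the shortest. With peaks limited to a -log10 q of at least 10, Efna2 alone of these 4 kept it. The narrower window, the 200 bp minimum, the q limit and the shorter lists can only remove peaks. They could not have shown a neomycin mark at these starts. Mesenchyme markers showed the same pattern. Of 15, 4 (26.7%, beside 4.66% of all genes), Coch, Prrx2, Sp7 and Twist1, were marked in both untreated and neither neomycin library. The list of 15 summed to 0 and 0 bp with neomycin against 1832 and 2353 bp in untreated cells. Twist2 was marked in untreated replicate 1 alone and Tbx18 in untreated replicate 2 alone. The other 9 of the 15 (60%, beside 45% of all genes) were unmarked in all 4 libraries. They were Col1a1, Col1a2, Dcn, Lum, Otos, Pdgfra, Pou3f4, Prrx1 and Runx2. Col1a1, Dcn, Lum and Sp7 have no listed start and were examined at their gene ends. The supporting cell markers Eya1, Gata3 and Id3 (15% of their list) were also marked in both untreated and neither neomycin library. So were the hair cell marker Atoh1 (6.67%) and the glial marker Pou3f1 (10%), and no neuron, endothelial or macrophage marker. The endothelial marker Flt1 (10%, beside 1.40% of all genes) was marked in both neomycin and neither untreated library. The part of these marker lists in the result was not tested.

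**Figure D3:**
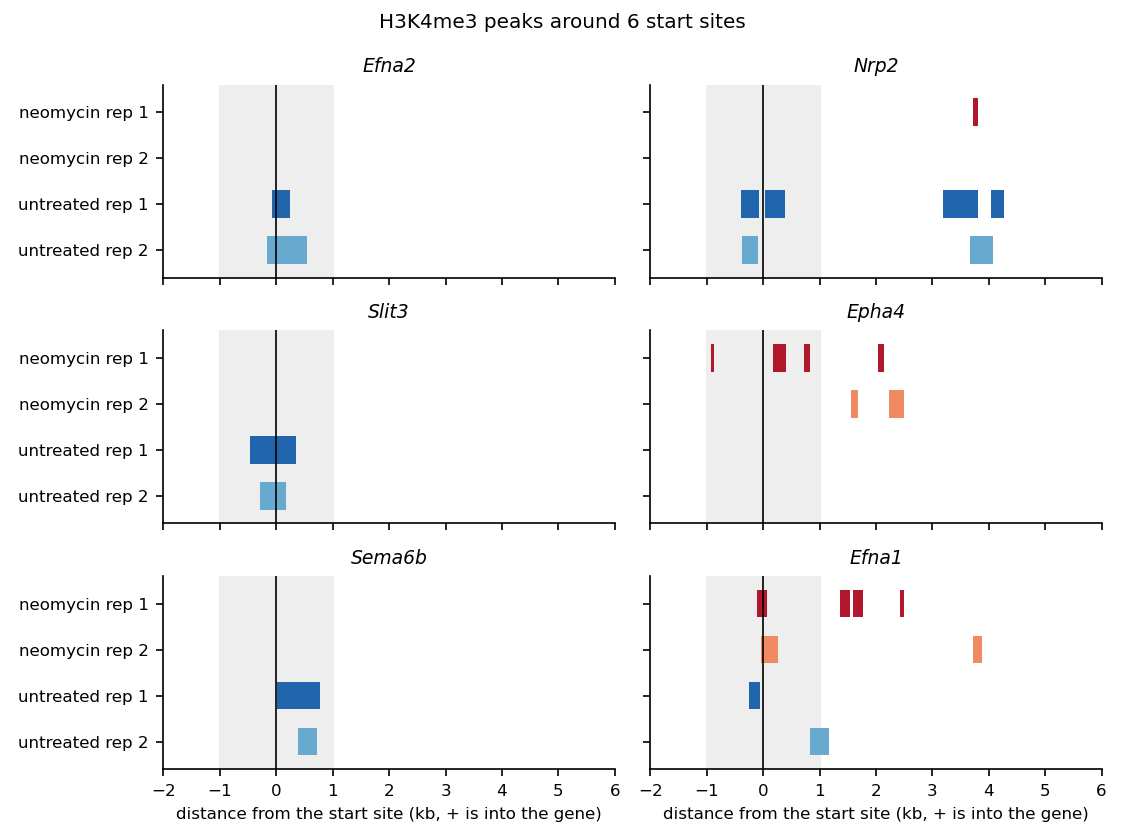
Position of each H3K4me3 peak (bars) in kb from the start site (vertical line, positive into the gene) for 6 genes, with neomycin libraries above untreated libraries; grey is the promoter window. Efna2, Slit3 and Sema6b have bars in the untreated rows alone, Nrp2 has in addition a neomycin bar 3.71 kb into the gene, Epha4 has bars in the neomycin rows alone, and Efna1 has bars in all 4.

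Ephrins and their receptors were the families with the highest shares marked in some library among those with more than 2 genes. Of the 8 ephrins, 7 were marked in at least 1 library and 3, Efna1, Efna4 and Efna5, in all 4. Efna5, on chromosome 17, encodes ephrin-A5. Its domain measured 313 and 326 bp in the neomycin libraries, against 1627 and 1463 bp in the untreated libraries. The neomycin values lay close together, as did the untreated ones, and the groups did not overlap. Efna4 measured 182 and 133 bp with neomycin, against 574 and 572 bp in untreated cells. Efnb2, which encodes a transmembrane ephrin that also marks arteries, had 5 short peaks summing to 376 bp in neomycin replicate 1 and none in neomycin replicate 2, against 1239 and 1084 bp in untreated cells. It thus differed more between the neomycin libraries than between the untreated ones. Efna3 was marked in neomycin replicate 2 and untreated replicate 1, Efnb3 in untreated replicate 1 alone, and Efnb1 in no library.

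Of the 14 Eph receptors, 12 were marked in at least 1 library and 5 in all 4: Epha1, Ephb1, Ephb2, Ephb4 and Ephb6. Ephb2, on chromosome 4, encodes a receptor of B-type ephrins and had the longest single-library domain of any member. It measured 48 and 228 bp in the neomycin libraries, against 1730 and 611 bp in the untreated libraries. The neomycin values were the lower pair, and 48 bp is the shortest peak that list holds. Ephb1, another receptor of B-type ephrins, measured 108 and 542 bp with neomycin, against 908 and 585 bp in untreated cells. Ephb4, the receptor of Efnb2 on veins, measured 58 and 192 bp with neomycin, against 352 and 687 bp in untreated cells. These receptors shared the order of Ephb2, with both neomycin lengths below both untreated lengths. Relative to each library's median promoter, the groups overlapped at Ephb1 and Ephb4 and not at Ephb2. Epha1 measured 222 and 140 bp with neomycin, against 223 and 370 bp in untreated cells. Ephb6, which encodes a receptor without kinase activity, measured 249 and 112 bp with neomycin, against 401 and 252 bp in untreated cells. In bp, the higher neomycin value of Epha1 and of Ephb6 was close to the lower untreated value. Relative to each library's median promoter, the groups overlapped at both.

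Epha2 and Epha7 were marked in every library except neomycin replicate 2, and Epha5, Epha6 and Ephb3 in every library except neomycin replicate 1. Epha3 was marked in untreated replicate 1 alone, and Epha8 and Epha10 in no library. The window of Epha5 is shared with the gene Gm42163 and that of Plxna1 with Gm40415, with peaks in the shared stretch, so their marks cannot be assigned to a single gene.

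Epha4 was the sole marked member without a peak in untreated replicate 1. It lies on chromosome 1 and encodes a receptor of both ephrin classes. Neomycin replicate 1 had 3 peaks summing to 385 bp within 1 kb of its start, and the other 3 libraries had none there. Inside the gene, 1.55 kb from the start, a region from 77512591 to 77513535 held 89 and 401 bp of peaks in neomycin replicates 1 and 2 and none in the untreated libraries. The nearest peaks in untreated replicates 1 and 2 lay 675 and 702 kb away. Epha4 was therefore the 1 member marked in both neomycin and neither untreated library when windows were widened to 2.5 kb either side, where 1.44% of all genes had that pattern, or when peaks anywhere in the gene were counted, where 1.56% had it. The Epha4 peaks were of middling height for their lists, with pileups of 6 to 8 in neomycin replicate 1, where the median peak had 7, and of 10 and 11 in neomycin replicate 2, where it had 11.

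Of the 20 semaphorins, 15 were marked in at least 1 library and 7 in all 4. Sema3f encodes a secreted repellent read through neuropilin-2. It measured 443 and 380 bp with neomycin, against 633 and 791 bp in untreated cells. Sema4c, the ligand of plexin-B2, measured 264 and 283 bp with neomycin, against 1155 and 424 bp in untreated cells. Sema4g measured 157 and 110 bp with neomycin, against 500 and 558 bp in untreated cells. In these cases each neomycin length was below each untreated length, and the untreated values of Sema4c differed most from each other. Relative to each library's median promoter, the groups overlapped at Sema3f, Sema4c and Sema4g. Sema5a and Sema5b encode transmembrane semaphorins with thrombospondin repeats. Sema5a measured 71 and 693 bp with neomycin, against 519 and 238 bp in untreated cells. Sema5b measured 79 and 546 bp with neomycin, against 1125 and 1202 bp in untreated cells. In bp, neomycin replicate 1 was the lowest library at both genes, and at Sema5a the groups overlapped. Relative to each library's median promoter, the groups overlapped at both genes, and untreated replicate 2 was the lowest at Sema5a. Sema6c measured 163 and 110 bp with neomycin, against 336 and 260 bp in untreated cells. Sema6d measured 70 and 247 bp with neomycin, against 504 and 242 bp in untreated cells. Each of these Sema6 genes has 2 listed starts and was marked at the outer one alone.

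Of the other semaphorins, Sema3d and Sema4b were marked in every library except untreated replicate 2, Sema3e and Sema7a in every library except neomycin replicate 2, and Sema3c in every library except neomycin replicate 1. Sema4f was marked in neomycin replicate 2 and untreated replicate 1, and Sema6a in untreated replicate 1 alone. Sema3a, Sema3g, Sema4a and Sema4d had no peak at a listed start, and Sema3b, with none listed, had no peak at its gene ends. Sema4d, a ligand of plexin-B1, had peaks elsewhere: a region at the outer end of the gene, 36.1 kb from the nearest listed start, held 121 and 345 bp with neomycin, against 552 and 625 bp in untreated cells. Sema6a likewise had a region in all 4 libraries 2.31 kb inside the gene, with 421 and 492 bp in neomycin libraries, against 1527 and 1429 bp in untreated libraries. With whole genes counted, both would be marked in all 4 libraries. Sema4d thus rests on which start sites are listed, and Sema6a, with no listed start, on the use of its gene ends.

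Of the 9 plexins, 7 were marked in at least 1 library and 3 in all 4. Plxna2, a receptor for class 6 and, with neuropilins, class 3 semaphorins, measured 138 and 301 bp with neomycin, against 983 and 728 bp in untreated cells. Plxnb1 measured 201 and 165 bp with neomycin, against 593 and 923 bp in untreated cells. Plxnb2 measured 98 and 127 bp with neomycin, against 292 and 426 bp in untreated cells. All 3 plexins had each neomycin length below each untreated length, as did the median promoter marked in all 4 libraries. Relative to that median in each library, the groups overlapped at Plxnb1 and Plxnb2 and not at Plxna2. Plxnc1, the receptor of Sema7a, was marked in neomycin replicate 1 with 153 bp and not in neomycin replicate 2, against 1229 and 946 bp in untreated cells. Plxna4 showed the same pattern of presence, and Sema7a did as well. Plxna1 and Plxnd1, which encodes the receptor of Sema3e, were marked in every library except neomycin replicate 1. Nrp1, the co-receptor related to Nrp2, was marked in all 4 libraries, with 208 and 270 bp in the neomycin libraries, against 867 and 277 bp in the untreated libraries. In bp, its second neomycin and second untreated values were nearly equal, unlike Nrp2, which had no start peak with neomycin. Relative to each library's median promoter, these Nrp1 values were 0.194 and -0.757 in log2, and the groups overlapped.

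Netrins were the family without a member marked in all 4 libraries. Ntn1, a secreted cue of commissural axons, was unmarked in neomycin replicate 1 and had 115 bp in neomycin replicate 2, against 744 and 234 bp in untreated cells. Ntn4, a netrin that binds laminins, had 212 bp in neomycin replicate 1 and none in neomycin replicate 2, against 281 and 322 bp in untreated cells. The neomycin libraries thus disagreed on both marked netrins, and Ntn3 and Ntn5 were unmarked at their starts.

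Of the 3 Slits, Slit2 was marked in all 4 libraries, with 122 and 140 bp with neomycin, against 835 and 380 bp in untreated cells, Slit3 in untreated cells alone, and Slit1 in none. Of the 4 Robo receptors, Robo2 was marked in all 4 libraries and measured 109 and 110 bp with neomycin, against 1063 and 531 bp in untreated cells. All its marks lay at 1 of 3 listed starts, the one 1036 kb inside the gene. Robo1, the other main Slit receptor of neurons, had 83 and 403 bp in the neomycin libraries, against 817 bp in untreated replicate 1 and none in untreated replicate 2. A region 1.14 kb from its start held 168 and 257 bp in the neomycin libraries and none in the untreated libraries. Robo3, a receptor of crossing commissural axons, and Robo4, which is known from endothelium, were unmarked in all 4 libraries.

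Domain length could be compared at the 21 members marked in all 4 libraries. Since peak length moved with each list's resolution, log2 lengths were centred on each library's median over the 3650 promoters of all genes marked in all 4 libraries, which was 125 and 236 bp with neomycin, against 573 and 468 bp in untreated cells. With limma, 0 of the 3650 promoters (background share 0%) and hence 0 of the 21 members passed a Benjamini-Hochberg adjusted p of 0.05, and 354 promoters and 2 members had an unadjusted p under 0.05. Relative to the median promoter, 10 members were longer with neomycin and 11 shorter, with a median log2 difference of -0.07, beside 0.00 over all promoters fitted. Both neomycin values lay above both untreated values at 1 member, Efna1, beside 19.3% of the promoters. Both untreated values lay above both neomycin values at 4 members, Efna5, Ephb2, Plxna2 and Robo2, beside 21.0%. Without centring, 20 of 21 members were shorter with neomycin and the median promoter of all genes was shorter by a log2 of -1.60, so uncentred lengths give no order between groups that is particular to these genes. Whether the shorter neomycin peaks come from the cells or from the peak lists cannot be told apart.

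The 2 members with an unadjusted p under 0.05 moved in opposite directions and did not pass the adjustment. At Efna1, which encodes ephrin-A1 on chromosome 3, the domain measured 534 and 302 bp with neomycin, against 187 and 344 bp in untreated cells. It was the 1 member of 21 whose mean log2 length was higher with neomycin before centring, by 0.66, and after centring the log2 difference was 2.26 (SE 0.658, limma adjusted p 0.223). Efna1 has 2 listed starts 1.31 kb apart, and at the outer one alone the lengths were 178 and 302 bp with neomycin, against 187 and 344 bp in untreated cells. At Ephb2 the log2 difference was -1.70 (SE 0.645, limma adjusted p 0.345). Both values moved when a library was left out, in fits with 1 residual degree of freedom that assume the lone library of a group to vary like the others. Without neomycin replicate 2 the log2 difference of Efna1 was 3.14 (limma adjusted p 0.000236) and that of Ephb2 -2.35 (adjusted p 0.00849). Without neomycin replicate 1 they were 1.42 (adjusted p 0.157) and -1.0 (adjusted p 0.341). Without untreated replicate 1 they were 1.66 and -1.11, and without untreated replicate 2 they were 2.74 and -2.41, with adjusted p from 0.998 to 0.999 in limma. Without neomycin replicate 2, 5 of 29 members passed, beside 362 of 5061 promoters, and without neomycin replicate 1, 1 of 28 members did, Sema5a, beside 140 of 4873 promoters.

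**Figure D4:**
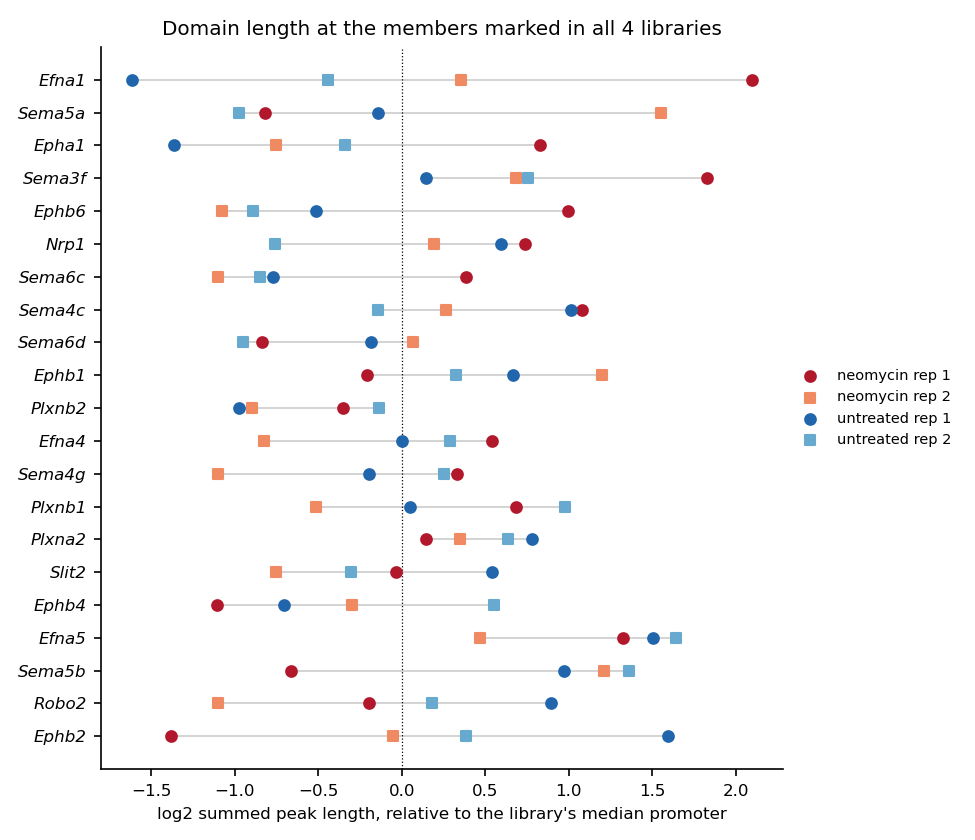
Log2 summed peak length relative to the library's median promoter (x axis) for each of the 21 genes marked in all 4 libraries, sorted by the neomycin minus untreated difference; each point is a library. Efna1, at the top, has both neomycin points right of both untreated points, and Ephb2, at the bottom, has them left.

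Marked members had more than 1 peak more often than all marked genes did, in each library. Peaks were counted over all start windows of a gene, so they can lie at different starts. In neomycin replicates 1 and 2, 72.7% and 36.4% of marked members had more than 1 peak, against 39.6% and 32.5% in untreated replicates 1 and 2. Over all marked genes the shares were 38.5% and 31.7% with neomycin, against 30% and 18.5% in untreated cells. Median domain lengths of marked members were 138 and 192 bp with neomycin, against 674.5 and 518.5 bp in untreated cells, where all marked genes had 108 and 191 bp with neomycin, against 440 and 414 bp in untreated cells. Peak height did not set the members apart: their median pileups were 7 and 11 with neomycin and 14 and 12 in untreated cells, where all marked genes had 7 and 11 with neomycin and 14 and 11 in untreated cells. Of the members' summits, 78% and 66.7% lay downstream of the start with neomycin, against 75.5% and 75% in untreated cells. Their median position was 254 and 143 bp downstream with neomycin, against 177 and 158.5 bp in untreated cells, where all genes had 225 and 174 bp with neomycin, against 199 and 223 bp in untreated cells.

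CpG content, a feature of the sequences that the choice of members did not use, varied with the mark. Unmarked members had a median of 14 CpG in 300 bases (13 genes), those marked in 1 to 3 libraries had 28 (23 genes) and those marked in all 4 had 23.5 (20 genes). Over all genes with a listed start the medians were 3, 22 and 27. All 5 members with at most 4 CpG, Ntn5, Plxnb3, Robo4, Sema3a and Sema4d, were unmarked, where 2.54% of all such genes were marked in some library. The listed start of Sema3a lies 272 kb inside the gene, and those of Sema4d lie 37 to 54.2 kb inside. The outer end of Sema4d, where CpG was not counted, had peaks in all 4 libraries. Of 13 members with 5 to 14 CpG, 76.9% had a mark in at least 1 library and 46.2% in all 4, where 42.2% and 7.83% of all genes in that range were. With at least 25 CpG, 95.5% of 22 members were marked somewhere, close to the 95.3% of all genes. The exception was Epha8, whose promoter held 56 CpG and had no peak in any of the 4 libraries. Among genes weighted to the members' CpG classes, 71.8% had a mark in at least 1 library and 22.9% in all 4, where the 56 members with a listed start had 76.8% and 35.7% and all genes unweighted had 55.6% and 17.1%.

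**Figure D5:**
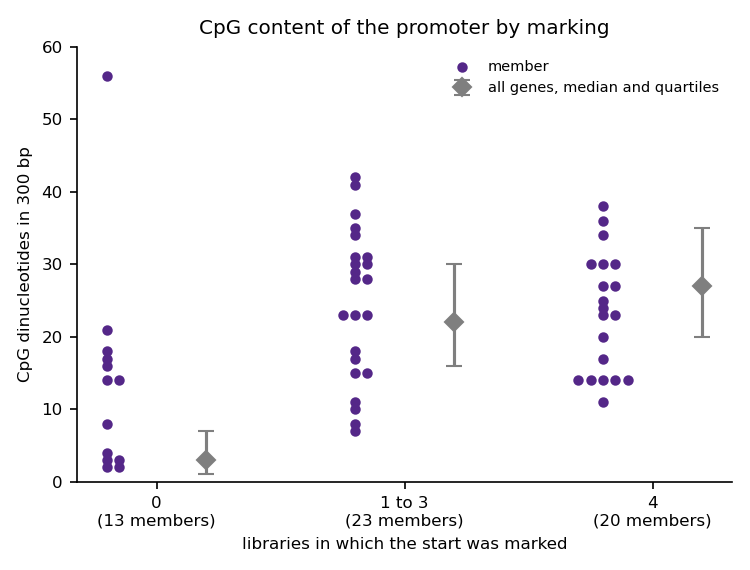
CpG dinucleotides in the 300 bp promoter (y axis) of the 56 members with a RefSeq start, by the number of libraries in which the start was marked (purple points), with the median and quartiles of all genes in grey. Unmarked members have a median of 14 against 3 over all unmarked genes, and Epha8 stands alone at 56.

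Among the 15 unmarked members were the 3 on the X chromosome, Efnb1, Plxna3 and Plxnb3. Of 966 X-linked genes, 17.6% were marked in some library and 1 gene in all 4, so X-linked genes at large were marked less often. Inside the genes, more than 1 kb from any start or gene end examined, 37 further regions were found in 27 members. Of these regions, 18 were in a single library and 4 in all 4. Those 4 were at Epha7, Sema4d, Sema6a and Sema6d. At Epha7 the region lay 1.44 kb from the start and held 159 and 332 bp with neomycin, against 692 and 370 bp in untreated cells. At Sema6d it lay 42.1 kb from the nearest listed start and held 114 and 427 bp with neomycin, against 1275 and 608 bp in untreated cells.

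The other genes of the pathway, 63 receptors and signal transducers that are no members, were marked to a similar extent. In some library 55 of 63 (87.3%) were marked, and in all 4 libraries 17 (27%), beside 55.0% and 16.7% of all genes. They include the netrin receptors Neo1, Unc5c and Unc5d in all 4 libraries and Unc5b in every library except untreated replicate 2, whereas Dcc was unmarked. Marks in both untreated and neither neomycin library were found at 5 (7.94%, beside 4.66% of all genes). They were Cdc42, a small GTPase, and Crmp1 and Dpysl3, which mediate semaphorin signals to the cytoskeleton. The others were Trio, a guanine nucleotide exchange factor, and Unc5a, a netrin receptor. Trio had no peak with neomycin, against 1194 and 1246 bp in untreated cells. Unc5a had none with neomycin, against 459 and 425 bp in untreated cells. Marks in both neomycin and neither untreated library were found at 1 gene (1.59%, beside 1.40% of all genes), Limk2, a kinase that phosphorylates cofilin. It had 74 and 118 bp in the neomycin libraries against none in the untreated libraries. These lengths lie under the 187 and 234 bp of the shortest untreated peaks.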

How the data were processed

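The authors deposited 1 peak list per H3K4me3 library, with no pooling of replicates. The submitters' processing notes name CASAVA 1.4, Bowtie2, MACS2 and deepTools and the build mm10. Their settings were not given in the sources used here. For every peak, per the file headers, the authors' caller wrote a start, an end, a summit, a length in bp, a pileup signal, a fold enrichment (its ratio to local background) and both the p-value and the q-value as -log10. Each value belongs to a single peak. The fold was used only within a list, and so was the q-value, except in the alternative that set the same q limit for all lists. Length and, as an alternative, pileup were compared between lists. Read totals are not given, so depth and counting error are unknown.

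Members were found by symbol in a RefSeq annotation of GRCm38.p6. The members and gene lists were chosen with earlier results of these data known. Start sites came from RefSeq promoters for 56 members and 17492 genes. For 8 members (Efnb3, Ntn1, Plxna1, Plxna4, Sema3b, Sema3f, Sema6a and Slit1) and 4395 genes with no entry, both gene ends were used. A window of 1 kb either side was marked when a peak overlapped it by at least 1 bp. Marks were counted and not tested. Log2 summed peak length at promoters marked in all 4 libraries was centred on the library median and tested by limma 3.58.1 (R 4.3.3), with Benjamini-Hochberg adjustment over all 3650 promoters and a threshold of 0.05. Both steps were checked on simulated data. Peaks inside genes were merged into regions across libraries where they lay within 500 bp. The remaining work was done in Python 3.11.15 with pandas 2.3.3, numpy 2.4.6 and matplotlib 3.10.9.

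Named in full were members marked in all 4 libraries or in both libraries of 1 group alone, and otherwise the 2 of each family with the most peak bases. Of the other pathway genes, those marked in both libraries of 1 group alone were named, and the netrin receptors were named after their values were seen, as were Epha4 and the regions inside genes. Alternatives changed the window, the overlap, the q threshold, the list length, the start sites, the centring, the length measure and the set of libraries, and a replicate block was fitted. Replicate numbers do not pair the libraries in the labels.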

Additional observations from a re-analysis of the deposited data

How the results depend on the processing

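In each alternative below, more members were marked in untreated than in neomycin cells alone, by 4 against 3 at the least, without untreated replicate 1. All genes had the same order in each alternative but that one, where 5.75% were marked in untreated and 5.91% in neomycin cells alone. The direction is therefore not particular to the members. The counts themselves moved, as did the shares of all genes. The 21 members marked in all 4 libraries became 4 (beside 2.38% of all genes) when at least 200 bp had to be covered, 0 (beside 0%) when a peak needed a -log10 q of 10 or more, and 12 (beside 11.6%) with lists of equal length, and ranged from 21 to 29 when each library was left out in turn. The 4 members marked in untreated cells alone became 10 (beside 6.29%) with windows of 500 bp, 20 (beside 17.8%) with 200 bp covered, and 7 (beside 6.67%) at the stricter q, and ranged from 4 to 12 with a library left out. The 0 members marked in neomycin cells alone became 1 with windows of 500 bp (Sema6c, beside 1.3% of all genes). They became 1 with 2.5 kb (beside 1.44%) and 1 with whole genes (beside 1.56%), Epha4 in both. With equal lists they were 2 (Robo1 and Sema3d, beside 1.79%), and they ranged from 0 to 3 with a library left out. The 3 were Robo1, Sema3d and Sema4b without untreated replicate 1 (beside 5.91%). Without neomycin replicate 2 the 1 was Epha4 (beside 3.28%). For domain length, limma called 0 promoters and 0 members. Without centring it called 1138 promoters and 10 members, all shorter with neomycin, and by the longest peak it called 1 promoter and 0 members. With a library left out it called 0 to 362 promoters and 0 to 5 members. The cause of the moves between libraries was not tested. With the replicate block it called 0 promoters and 0 members. The within-group deviations of libraries with the same number had a correlation of -0.022 over 3650 promoters, so the numbers give no sign of pairing. Missing depth and lengths that cannot fall under each list's shortest peak limit what these lists can show.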
